A study of Mus musculus with 98 samples.

Results

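The cell proliferation genes are a set of 34 mouse genes whose products copy the genome, drive entry into mitosis or carry out cell division. They were chosen by gene symbol for their known role, but with earlier results of these data known. All 34 were counted in each of the 6 deposited tables, which hold 25239 or 55367 gene rows. The set holds 2 general markers of cycling cells (Mki67, Top2a), 11 cyclins, kinases and genes of mitotic exit (Cdk1, Ccna2, Ccnb1, Ccnb2, Aurka, Aurkb, Plk1, Bub1, Bub1b, Cdc20, Ube2c) and 9 genes of the spindle, kinetochore and cytokinesis (Birc5, Cenpe, Cenpf, Kif11, Kif20a, Kif23, Tpx2, Nusap1, Prc1). It also holds 7 genes of DNA replication (Mcm2 to Mcm7 and Pcna), 3 of nucleotide supply (Rrm2, Tyms, Tk1) and 2 transcription factors (Foxm1, E2f1).

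Neurons leave the cell cycle as they differentiate, so transcripts of these genes in brain tissue or neuron culture are usually made by the dividing cells beside them, such as neural progenitors, oligodendrocyte precursors, astrocytes and microglia. Replication genes are switched on in late G1 and S phase by E2F factors. Mitotic genes are switched on later, in G2, when B-MYB and FOXM1 join the MuvB complex at a promoter element called the cell cycle genes homology region (CHR), often near CCAAT boxes bound by NF-Y. The replication genes also act in DNA repair, and their transcripts can be found in cells that do not divide.

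The study raised the level of ACSS2, the enzyme that makes acetyl-CoA from acetate, with a virus and measured RNA in mouse hippocampal cultures and hippocampus, in 98 libraries and 22 groups. The cultures were primary hippocampal neurons from CD1 embryos, grown in a neurobasal medium with B27. They received a PhP.eB virus carrying ACSS2 (named upACSS2) or an empty PhP.eB vector on culture day 5, were washed on day 7 and were then given hAD-tau, as the labels name a tau preparation, or PBS. Unstimulated cultures were harvested on day 9 or day 21 in 8 groups of 3 libraries, and cultures labelled as stimulated on day 21 in 4 groups of 3. The labels do not say what the stimulation was. A further culture without virus, harvested on day 21, had 3 PBS and 4 hAD-tau libraries. All mice were male, and the virus was given by retro-orbital injection to the C57BL6 mice. The aged C57BL6 mice were injected at 21 to 22 months and their hippocampus was taken at 22 to 23 months of age, 30 min after recall of a remote context (12 vector, 12 upACSS2). The labels also give 2 months after injection for these mice, which the age ranges alone do not settle. The 10-month C57BL6 mice carried the virus for 2 weeks, and dorsal hippocampus was taken 30 min after fear conditioning (5 vector, 6 upACSS2). PS19 mice, a line that carries a mutant human tau transgene, were injected at 2.5 months and dorsal hippocampus was taken 1 or 6 months later, 30 min after a contextual recall test, with 5 mice in each of 4 groups. In the PS19 group given upACSS2 for 1 month the labels give whole hippocampus, so dissection and virus cannot be told apart there. Treatment labels go against sample titles in several groups, and the groups here follow the titles. The promoter that drives ACSS2 is not given in the sources used here, nor is it said that replicate libraries came from separate cultures, so p-values measure the spread between libraries, which may be technical.

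Library totals ran from 5075099 to 39985460 counts. Acss2 itself, in CPM (counts scaled to a common library total, as edgeR computes them), was 1487 to 5460 in every culture library given upACSS2 and 40.1 to 57.8 in those given vector. In the mice the 2 arms lay close or overlapped, at 46.6 to 61.4 CPM for upACSS2 against 39.9 to 53.6 for vector in aged mice, 49.8 to 59.1 against 42.1 to 48.7 in 10-month mice, 60.0 to 1463 against 51.4 to 66.3 in PS19 mice after 1 month and 44.9 to 236 against 43.0 to 55.9 after 6 months. The neuron label was borne out by high neuronal markers (Rbfox3 at 100.7 to 223 CPM and Snap25 at 637 to 1369 CPM in the unstimulated cultures). The same cultures held markers of astrocytes, oligodendrocyte precursors and neural progenitors, while the endothelial marker Cldn5 did not exceed 0.11 CPM and the 11 microglia markers summed to between 17.98 and 51.0 CPM (Csf1r 1.03 to 5.59, Cx3cr1 at most 1.98 and P2ry12 at most 0.64 CPM). These are bulk samples, so fewer dividing cells and less RNA of these genes per cell cannot be told apart.

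The promoters of the set carry different motifs by role, and 4 are shown because their genes lead the comparisons described further on: Top2a and Cdk1 for mitosis, Mcm5 and Mcm6 for replication. Each is the 250 bases before the transcription start in RefSeq (build GRCm38.p6), written 5′ to 3′ on the strand of the gene. Capitals mark matches on either strand to the CHR (TTTGAA or TTCGAA), the E2F core (TTCCCGC or TTGGCGC or TTCGCGC or TTGCCGC) or the CCAAT box (CCAAT); where an E2F match on one strand overlaps one on the other, the capitals join. The windows lie at chr11:99024190-99024439 on the minus strand for Top2a, chr10:69352913-69353162 on the minus strand for Cdk1, chr8:75109259-75109508 on the plus strand for Mcm5 and chr1:128359706-128359955 on the minus strand for Mcm6.
Top2a: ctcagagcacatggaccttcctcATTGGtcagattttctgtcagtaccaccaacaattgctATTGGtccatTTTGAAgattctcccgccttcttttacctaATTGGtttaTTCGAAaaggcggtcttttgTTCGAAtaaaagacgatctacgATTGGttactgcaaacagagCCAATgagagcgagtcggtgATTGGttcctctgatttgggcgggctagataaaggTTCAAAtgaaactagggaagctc
Cdk1: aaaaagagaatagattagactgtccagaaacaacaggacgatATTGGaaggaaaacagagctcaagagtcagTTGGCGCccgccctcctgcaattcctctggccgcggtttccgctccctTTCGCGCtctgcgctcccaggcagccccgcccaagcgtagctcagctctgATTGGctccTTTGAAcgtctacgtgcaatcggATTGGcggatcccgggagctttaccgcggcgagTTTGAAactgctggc
Mcm5: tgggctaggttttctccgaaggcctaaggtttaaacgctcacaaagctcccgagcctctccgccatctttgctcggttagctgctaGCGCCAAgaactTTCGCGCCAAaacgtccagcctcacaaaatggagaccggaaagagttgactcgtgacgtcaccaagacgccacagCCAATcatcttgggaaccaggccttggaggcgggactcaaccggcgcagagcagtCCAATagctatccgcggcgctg
Mcm6: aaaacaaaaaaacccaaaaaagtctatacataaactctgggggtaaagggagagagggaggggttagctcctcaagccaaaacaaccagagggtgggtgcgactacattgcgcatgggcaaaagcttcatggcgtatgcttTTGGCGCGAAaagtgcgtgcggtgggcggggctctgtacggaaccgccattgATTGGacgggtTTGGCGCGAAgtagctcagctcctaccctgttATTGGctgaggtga
Top2a held 4 CHR matches and no E2F match, Cdk1 held 2 of each, Mcm5 held 3 E2F matches and Mcm6 held 4, and neither of these held a CHR. Over 300-base windows that run from 250 bases before to 50 bases after the start, 28 members had an entry with 30 windows among 32851 windows of all genes, and Foxm1, Kif20a, Aurkb, Tpx2, Mcm4 and Ccna2 were not in the table. Prc1 and Mcm7 had 2 windows each, and the same CHR of Prc1 is counted in both of its windows. A CHR match within 50 bases of the start was found in 14 of 19 windows of the mitotic and cycling members (73.7%), in 0 of 10 windows of the replication and nucleotide members and in 5.31% of all windows. Over the whole window the CHR was found in 15 of the 19 (78.9%), in 2 of the 10 and in 19.2% of all windows. Over the whole window an E2F core was found in 6 of the 10 replication and nucleotide windows (60.0%), in 3 of the 19 mitotic ones (15.8%) and in 9.57% of all windows. Within 50 bases of the start it was found in 3 of the 10 (30.0%), in 0 of the 19 and in 3.81% of all windows. The CCAAT box stood anywhere in the window in 25 of the 30 member windows (83.3%) against 37.4% of all windows. A match is a description of the letters and not evidence that a factor binds there.

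The members differed widely in level. Per kilobase of exon, in vector cultures given PBS on day 9, Pcna, the sliding clamp of DNA polymerase, stood highest at 12.2 CPM, ahead of the ribonucleotide reductase subunit Rrm2 at 5.49, the helicase subunits Mcm6 at 5.25, Mcm4 at 4.59, Mcm7 at 3.89 and Mcm3 at 3.46, and E2f1 at 3.37. The kinesin Kif23 (0.522) and thymidine kinase Tk1 (0.464) stood lowest. In vector-treated aged mice the order was led by Pcna at 16.1 CPM per kilobase, Mcm4 at 3.29, E2f1 at 2.90, Mcm6 at 2.76 and Mcm7 at 2.20, while Mki67 was at 0.035, Top2a at 0.042 and Ccnb1 at 0.014. Over the 7 replication genes the mean log2 CPM was 4.03 in the day 9 vector PBS group and 3.11 in aged vector mice, and over the 11 cyclins, kinases and exit genes it was 2.05 and −1.19. The replication genes thus stood closer between culture and tissue than the mitotic genes, although these tables were scaled separately and no test was run between them.

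**Figure D1:**
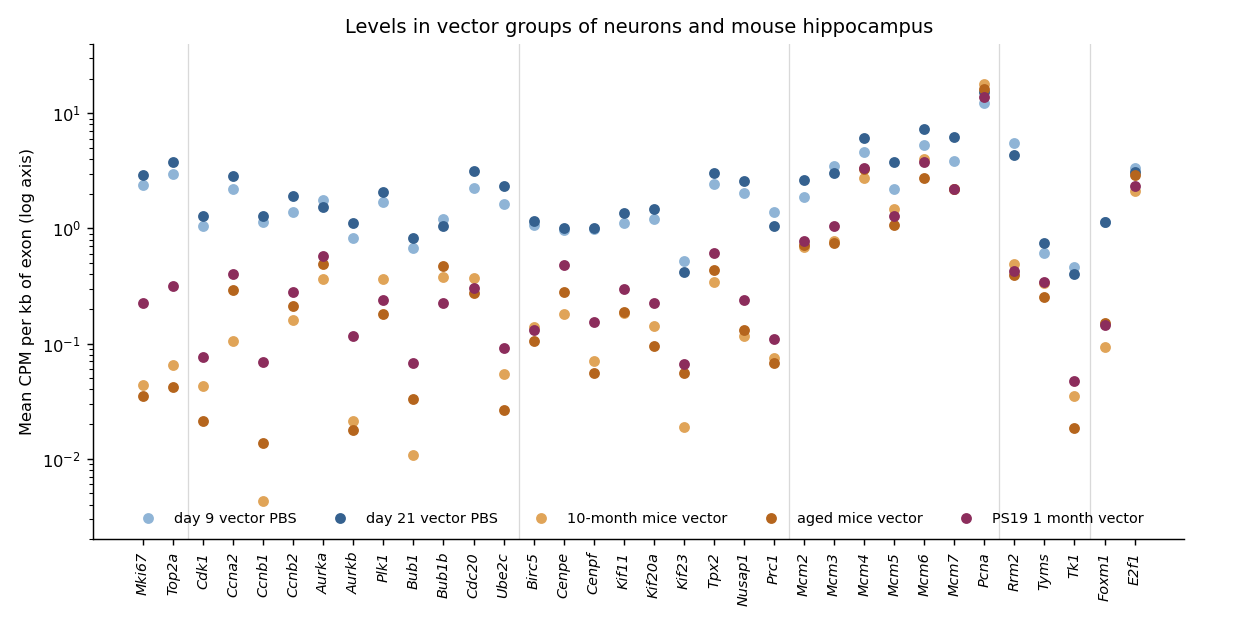
Mean level of each of the 34 genes in CPM per kilobase of exon (log axis) in 5 vector groups: culture day 9, culture day 21 with PBS, 10-month mice, aged mice and PS19 mice after 1 month. Pcna lies above 12 in each of these groups, while Mki67 is at 2.36 on culture day 9 and at 0.035 in aged mice.

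The mean log2 CPM over the 34 genes gives each library a score, described here without a test. It lay between 2.39 and 3.05 in the 12 libraries of day 9, between 2.73 and 4.79 in the 12 unstimulated libraries of day 21 and between 2.50 and 3.99 in the stimulated ones. It reached 4.97 in the culture without virus, where 1 PBS library lay at 0.97, and stayed between −0.01 and 1.20 in all mice.

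**Figure D2:**
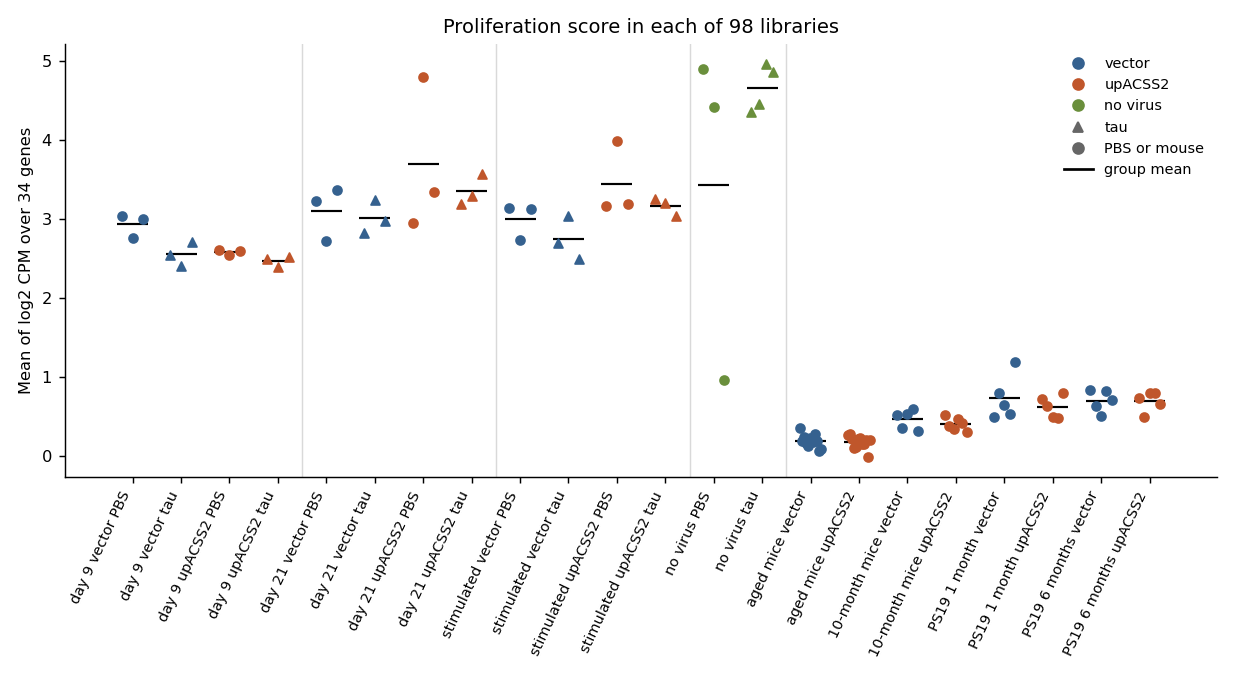
Mean log2 CPM over the 34 genes in each library (points) by group, with the group mean as a black bar. Vector cultures given PBS lie above the other 3 groups on day 9 (2.76 to 3.05), upACSS2 PBS replicate 2 lies above the other unstimulated libraries on day 21 (4.79), PBS replicate 3 of the culture without virus lies far below the rest of its table (0.97), and all mice lie at 1.20 or lower.

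On day 9 the set stood lower with upACSS2 than with vector in cultures given PBS: 17 of the 34 genes passed the test as lower and 0 as higher (edgeR quasi-likelihood test, adjusted p under 0.05 over 14022 genes). Over all genes tested, 10.2% passed, 5.35% as lower and 4.9% as higher. All 34 log2 fold changes were negative, with a median of −0.41. In 20 of the 34 genes all 3 upACSS2 libraries lay below all 3 vector libraries, against 14.2% of all genes tested.

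Among the markers of cycling cells, Mki67, which encodes the Ki-67 antigen of dividing nuclei, was at 24.5, 19.8 and 27.1 CPM in the vector libraries and at 16.5, 14.9 and 18 CPM with upACSS2. Top2a, the topoisomerase that untangles replicated chromosomes, was at 29.0, 22.2 and 29.4 CPM with vector and at 19.3, 17.7 and 16.7 CPM with upACSS2. In both genes every upACSS2 library lay below every vector library, and vector replicate 2 was the lowest of its group. The log2 fold change was −0.53 for Mki67 (SE 0.097, edgeR adjusted p = 0.0022) and −0.60 for Top2a (SE 0.096, edgeR adjusted p = 0.0013). Cenpf, a kinetochore protein of mitosis, was at 16.6, 12.5 and 17 CPM with vector and at 11.2, 9.96 and 10.1 CPM with upACSS2, a log2 difference of −0.57 (SE 0.11, adjusted p = 0.0023). Nusap1, a spindle microtubule protein, was at 8.67, 8.74 and 7.39 CPM with vector and at 5.45, 6.66 and 6.18 CPM with upACSS2, a log2 difference of −0.47 (SE 0.11, adjusted p = 0.0099). The groups of these 2 genes did not overlap either.

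The replication genes split. Mcm6, a subunit of the helicase that opens DNA ahead of the fork, was at 26.0, 22.1 and 25.4 CPM with vector and at 19.1, 17.9 and 20.3 CPM with upACSS2, a fall by 0.37 (SE 0.071, adjusted p = 0.0032). Pcna was at 30.0, 29.1 and 28.6 CPM with vector and at 24.9, 23.7 and 23.0 CPM with upACSS2, a fall by 0.30 (SE 0.073, adjusted p = 0.013). Mcm3, Mcm5 and Mcm7, which form the same ring as Mcm6, also passed as lower, at −0.36, −0.48 and −0.34. The remaining 2 subunits of the ring did not pass. Mcm2 was at 12.6, 12.8 and 13.6 CPM with vector and at 12.5, 12.9 and 10.1 CPM with upACSS2 (−0.14, SE 0.092, adjusted p = 0.34), with overlapping groups. Mcm4 was at 17.5, 16.9 and 15.1 CPM with vector and at 17.1, 16.8 and 15.5 CPM with upACSS2, a log2 difference of −0.02 (SE 0.080, adjusted p = 0.91).

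By role, both markers of cycling cells, 5 of 7 replication genes, 4 of 9 spindle genes, 4 of 11 cyclins, kinases and exit genes, 1 of 3 nucleotide genes and 1 of 2 transcription factors passed as lower. Besides those described, they were Birc5 (−0.53), Cenpe (−0.39), the mitotic kinase Cdk1 (−0.56), its cyclin Ccnb1 (−0.55), the checkpoint kinase Bub1b (−0.60), the anaphase activator Cdc20 (−0.56), Rrm2 (−0.27) and Foxm1 (−0.44). Other members had differences as large with wider errors, such as Aurkb (−0.50, SE 0.21), Plk1 (−0.53, SE 0.19), Kif23 (−0.51, SE 0.18) and Tk1 (−0.50, SE 0.24), all with adjusted p from 0.066 to 0.19. Tyms (−0.07), Bub1 (−0.13), E2f1 (−0.16), Prc1 (−0.18), Ccnb2 (−0.18) and Aurka (−0.23) had the smallest differences beside Mcm4 and Mcm2.

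Other genes of the cell cycle, taken from lists of known roles, followed the members in part. Of 49 further mitosis genes 13 passed as lower and 0 as higher (median −0.38), among them the cohesin protector Sgo1 (−0.92), the mitotic kinase Pbk (−0.81) and Cdca2 (−0.75). Of 42 further replication genes 5 passed as lower (median −0.17), including Gins3 (−0.60), Uhrf1 (−0.42) and Chaf1a (−0.32). Of 25 G1 cyclins, kinases and E2F family genes, Mybl2, which encodes B-MYB, and Cdk6 passed as lower (−0.78 and −0.60) and Mycn passed as higher (0.30). Of 20 inhibitors of the cell cycle only Cdkn1a passed, as lower (−0.22), so the fall of the members was not accompanied by a rise in this list that passed the test.

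Some markers of dividing glial and progenitor cells moved with the members in the same comparison. The 10 neural progenitor markers summed to 864, 752 and 847 CPM with vector and to 638, 533 and 579 CPM with upACSS2, and 5 of the 9 tested passed as lower, including Fabp7 (−0.65) and Hes5 (−0.54). The 9 oligodendrocyte precursor markers summed to 303, 266 and 316 CPM with vector and to 279, 253 and 270 CPM with upACSS2, which overlap. Of the 7 tested in this list 5 passed as lower, including Pdgfra, whose mean went from 10.0 ± 4.68 CPM (SD, n = 3) with vector to 1.99 ± 0.107 CPM with upACSS2, and Sox10, which went from 1.0 ± 0.505 to 0.113 ± 0.0514 CPM. Both genes fell far more than the sum of the list, and Sox10 was close to the floor with upACSS2. Of 10 neuron markers 4 passed as higher (Syn1 0.25, Map2 0.20 and Syt1 0.15 among them) and 1 as lower (Snap25 −0.12). Of the mature oligodendrocyte markers Mbp (−0.31) and Cnp (−0.25) passed as lower, and of the neuroblast markers Dcx passed as higher (0.28) and Igfbpl1 as lower (−0.31). No marker of astrocytes, microglia, endothelium, mural cells and fibroblasts or choroid plexus passed. The astrocyte sum stayed between 2442 and 3016 CPM in all 12 libraries of day 9 and the microglia sum between 19.2 and 24.3 CPM. The part of these cell types in the members' fall was not tested.

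The count of members called depended on single libraries and on the estimate of spread. It was 5 without vector PBS replicate 1, 21 without vector PBS replicate 2 and 8 without vector PBS replicate 3. It was 9, 8 and 10 without upACSS2 PBS replicates 1, 2 and 3. The median log2 fold change over the members stayed between −0.46 and −0.33. Among the 6 genes with the lowest p, Nusap1 did not pass without upACSS2 replicate 1 (adjusted p = 0.065) or vector replicate 1 (0.064), and Pcna did not without upACSS2 replicate 3 (0.052) or vector replicate 1 (0.066). DESeq2 called 9. With all 24 unstimulated libraries in 1 edgeR fit, whose biological coefficient of variation was 0.135 against 0.042 for day 9 alone, 0 were called and Top2a was at −0.59 with an adjusted p of 0.91.

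A part of the set stood lower with hAD-tau than with PBS in vector cultures on day 9: 10 of the 34 genes passed as lower and 0 as higher, against 4.28% of all genes tested in either direction, 2.27% as lower and 2.01% as higher (edgeR). The median log2 fold change over the members was −0.39, with 32 values below 0, and in 15 genes all tau libraries lay below all PBS libraries, against 10.2% of all genes. This comparison and the one of upACSS2 with vector in PBS share the 3 vector PBS libraries, which had the highest mean of the 4 groups in most members, so their fold changes are not independent.

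Cenpf was at 8.15, 9.52 and 10.8 CPM with tau, below all of 16.6, 12.5 and 17 CPM with PBS, a fall by 0.71 (SE 0.11, adjusted p = 0.0013). Bub1b, a kinase of the spindle checkpoint, was at 2.12, 2.48 and 3.08 CPM with tau and at 5.24, 4.22 and 6.00 CPM with PBS, a fall by 1.02 (SE 0.17, adjusted p = 0.0021). Cdk1 was at 3.27, 3.07 and 3.51 CPM with tau and at 5.24, 4.28 and 6.00 CPM with PBS, a fall by 0.67 (SE 0.15, adjusted p = 0.018). In these 3 mitotic genes the groups did not overlap, and PBS replicate 2 was the lowest of its group. Mki67 was at 18.6, 16 and 17.7 CPM with tau, a fall by 0.46 (SE 0.10, adjusted p = 0.014), and Pcna at 21.1, 22.1 and 26.8 CPM, a fall by 0.34 (SE 0.076, adjusted p = 0.015). Top2a was at 19.5, 17.7 and 23.0 CPM with tau, so its highest tau library lay above its lowest PBS library at 22.2 CPM, and it fell by 0.44 (SE 0.098, adjusted p = 0.014). The other 4 that passed were Bub1 (−0.72), Rrm2 (−0.31), Ccna2 (−0.50) and Birc5 (−0.58).

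Mcm2 was at 12, 11.2 and 11.9 CPM with tau (−0.15, adjusted p = 0.39), and of the 7 replication genes only Pcna passed. E2f1 (0.05) and Tyms (0.08) were the 2 members with a value above 0. Of the 49 other mitosis genes 11 passed as lower (median −0.39), including Dlgap5 (−1.15), Kif18b (−1.0) and Sgo1 (−0.97), and of the 42 other replication genes 2 did, Gmnn (−1.18) and Uhrf1 (−0.52). Cdk6 (−0.76), the G1 cyclin Ccnd1 (−0.30) and the inhibitor list's Gadd45g (−0.62) also fell. The progenitor sum was 573, 546 and 716 CPM with tau and the oligodendrocyte precursor sum 186, 173 and 215 CPM, each below all 3 vector PBS libraries. Of the progenitor markers Lfng (−0.70), Nes (−0.62) and Fabp7 (−0.50) were among 4 of 9 that passed, and of the precursor markers Pdgfra (−1.12), Olig2 (−0.72) and Olig1 (−0.67) were the 3 of 7. Gfap, an intermediate filament of astrocytes, rose by 0.56 and Fgfr3 fell by 0.31. The part of these cells in the members' values was not tested.

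The call count with tau was 2 without vector PBS replicate 1 or without tau replicate 2, 3 without tau replicate 1, 16 without vector PBS replicate 2 and 19 without tau replicate 3. Of the 6 genes with the lowest p, Cenpf and Bub1b passed in each of these fits. Mki67 did not pass without tau replicate 2 (adjusted p = 0.12) or PBS replicate 1 (0.088), and Top2a, Pcna and Cdk1 did not without tau replicate 1, tau replicate 2 or PBS replicate 1 (0.070 to 0.13). With all 24 unstimulated libraries in 1 fit 0 members were called, with only the 2 groups compared 6, and without a filter on low counts 19.

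**Figure D3:**
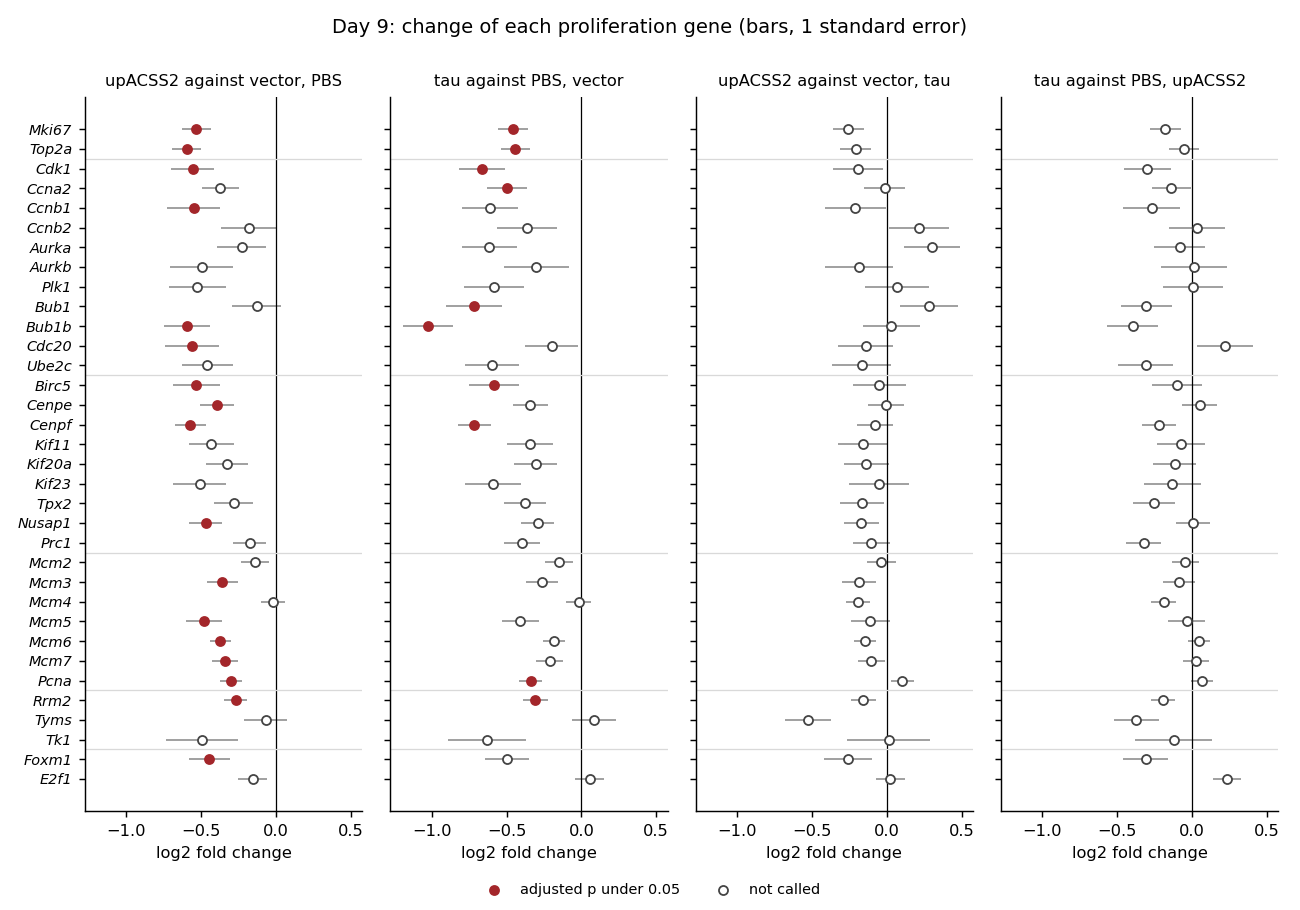
Log2 fold change of each of the 34 genes on day 9 with its standard error, in 4 panels: upACSS2 against vector in PBS and in tau, and tau against PBS in vector and in upACSS2 cultures; filled points have an adjusted p under 0.05. The 17 and 10 filled points are in the 2 panels that use the vector PBS libraries, and the other 2 panels have medians of −0.12 and −0.11 with none filled.

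Between the remaining groups of day 9 no member was called. With tau present, upACSS2 and vector differed by a median of −0.12 over the members (0.692% of all genes called; 3 members at an unadjusted p under 0.05; DESeq2 also called 0). In upACSS2 cultures tau and PBS differed by a median of −0.11 (0.349% of all genes called; 6 members at an unadjusted p under 0.05; DESeq2 also called 0). Mki67 was at 16.1, 13 and 14.6 CPM and Top2a at 17.7, 16.7 and 17.6 CPM with both agents, against 16.5, 14.9 and 18 CPM and 19.3, 17.7 and 16.7 CPM with upACSS2 alone. Pcna was at 26.0, 24.0 and 25.0 CPM with both and Mcm2 at 12, 11.6 and 10.8 CPM. Each agent alone thus gave levels near those of both together. The test of that difference, the interaction of virus and tau, called 0 members (0.663% of all genes; 10 members at an unadjusted p under 0.05), with 32 of 34 values above 0, a median of 0.33 and Pcna lowest in p (0.40, adjusted p = 0.063). DESeq2 called 1 member in it, voom with quality weights 1 (Pcna in both) and edgeR without a filter on low counts 3 (Pcna, Cenpf and Top2a). Without vector tau replicate 3 edgeR called the same 3 (adjusted p 0.0039 to 0.031). The progenitor marker Fabp7 passed this interaction (0.74, adjusted p = 0.044).

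From day 9 to day 21 the members rose in cultures given upACSS2 and, for the most part, did not pass the test in cultures given vector. With upACSS2, 32 of 34 passed as higher in PBS cultures and 24 in tau cultures, with medians of 1.38 and 1.00 (edgeR, all 24 unstimulated libraries). With vector, 2 passed in PBS cultures and 4 in tau cultures, with medians of 0.29 and 0.52. This fit shares 1 estimate of the spread between the days, with a biological coefficient of variation of 0.135. It was 0.042 for day 9 alone and 0.189 for day 21 alone, so the shared estimate lies below the spread of day 21. The time comparison was broad: of all genes 54.3%, 53.6%, 57.7% and 52.6% passed in the same 4 comparisons, and 28.5%, 27.2%, 30.6% and 27.7% passed as higher. The vector arms thus had fewer members called than the share of all genes, and the upACSS2 arms more. The rise with upACSS2 in PBS starts from the day 9 libraries that stood below vector, with mean scores of 2.59 and 2.94. It therefore shares libraries with the day 9 result and is not independent of it. Without upACSS2 PBS replicate 2 of day 21, upACSS2 and vector differed on day 21 by a median of 0.04 over the members. Day 21 libraries lay above all day 9 libraries in 28 and 29 members with upACSS2 and in 7 and 21 with vector, against 33.8%, 34.5%, 30.3% and 31.3% of all genes.

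In upACSS2 PBS cultures Mki67 went from 16.5, 14.9 and 18 CPM on day 9 to 28.7, 112 and 38.7 CPM on day 21, a rise by 1.86 (adjusted p = 1.2e-04). Top2a went from 19.3, 17.7 and 16.7 CPM to 34.9, 126 and 41.2 CPM, a rise by 1.91 (adjusted p = 8.6e-05). Every day 21 library lay above every day 9 library, and replicate 2 of day 21 lay far above the other two. Mcm5 went from 6.84, 6.27 and 6.02 CPM to 15.5, 49.1 and 15.8 CPM (2.07, adjusted p = 3.4e-05). Mcm7 went from 13.9, 12.8 and 13.9 CPM to 28.4, 45.8 and 25.2 CPM (1.29, adjusted p = 2.8e-05). Mcm2 went from 12.5, 12.9 and 10.1 CPM to 19.3, 45.6 and 17.3 CPM (1.21), and Pcna from 24.9, 23.7 and 23.0 CPM to 35.4, 58.3 and 34.6 CPM (0.84). The same library, replicate 2, was highest in all of these. Without it 19 members passed as higher and 1, E2f1, as lower, the median was 0.60, and these 6 genes still passed, at 1.03 for Mki67, 1.08 for Top2a, 1.29 for Mcm5, 0.98 for Mcm7, 0.63 for Mcm2 and 0.55 for Pcna. E2f1 and Tyms were the members that did not pass; E2f1 was at 4.01, 9.81 and 6.60 CPM on day 21 against 10.2, 8.31 and 9.95 CPM on day 9 (−0.48, adjusted p = 0.16).

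In upACSS2 tau cultures the day 21 libraries lay close together. Mki67 went from 16.1, 13 and 14.6 CPM to 38.5, 41.3 and 43.3 CPM, a rise by 1.49 (SE 0.34, adjusted p = 9.7e-04). Top2a went from 17.7, 16.7 and 17.6 CPM to 41.4, 43.7 and 54.5 CPM, a rise by 1.43 (adjusted p = 0.0013). Mcm5 went from 6.49, 5.64 and 6.49 CPM to 13.5, 16.2 and 21.8 CPM, a rise by 1.47 (adjusted p = 9.9e-04). None of these groups overlapped. Cenpf went from 9.33, 9.02 and 8.65 CPM to 19.7, 21.5 and 22.4 CPM (1.24, adjusted p = 0.0042), Kif20a, a kinesin of cytokinesis, from 3.34, 3.71 and 4.56 CPM to 8.01, 7.39 and 9.83 CPM (1.11, adjusted p = 0.0025), and Mcm7 from 13.3, 14 and 14.1 CPM to 20.4, 22.5 and 26.4 CPM (0.74, adjusted p = 0.0049). The 10 members that did not pass were Aurka, Plk1, Kif23, Prc1, Mcm3, Pcna, Rrm2, Tyms, Tk1 and E2f1. Without day 21 replicate 3 the count was 14 in place of 24.

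In vector cultures the replication genes were those that passed in the fit of all 24 libraries. With PBS, Mcm7 went from 16.6, 15.4 and 19.7 CPM on day 9 to 23.5, 30.2 and 28.7 CPM (0.68, adjusted p = 0.0073) and Mcm5 from 9.96, 7.36 and 8.91 CPM to 16.3, 10.4 and 18.7 CPM (0.79, adjusted p = 0.045). With tau, Mcm7 went from 13.4, 15.4 and 15.7 CPM to 18.5, 34 and 20.6 CPM (0.71), Mcm5 from 6.04, 6.38 and 7.87 CPM to 12.1, 17.1 and 14.5 CPM (1.11), Pcna from 21.1, 22.1 and 26.8 CPM to 30.3, 42.5 and 30.6 CPM (0.56) and Mcm4 from 16.1, 16.4 and 17 CPM to 22.5, 25.6 and 20.6 CPM (0.48), with adjusted p from 0.0065 to 0.037. No member of the cycling, mitotic, spindle or nucleotide groups passed in either vector arm in that fit: Mki67 was at 32.9, 18.2 and 36.2 CPM on day 21 with PBS and at 21.1, 30.3 and 27.6 CPM with tau, and Top2a at 35.5, 21.8 and 45.4 CPM and at 26.7, 35.1 and 31.5 CPM. Mcm5 in PBS did not pass without PBS replicates 1 or 3 of day 21 or without any of the 3 of day 9 (adjusted p 0.058 to 0.18). In tau, Pcna and Mcm7 did not pass without day 21 replicate 2 (0.065 and 0.10), which left 1 member called, and Mcm4 did not without day 21 replicates 1 or 2 or any of day 9 (0.065 to 0.14). This restriction to replication genes did not hold with tau when the fit used the 2 groups alone: 16 members then passed, among them Mki67 (0.59, adjusted p = 0.013), Top2a (0.62, adjusted p = 0.0078), 5 cyclins, kinases and exit genes (Cdk1, Ccna2, Bub1, Bub1b, Ube2c) and 3 spindle genes (Birc5, Tpx2, Nusap1). With PBS the same kind of fit called 6, all of them replication genes.

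A test of the difference between the arms, the interaction of virus and day, called 0 members. In PBS its median was 1.29, with 28 members at an unadjusted p under 0.05, a lowest adjusted p of 0.21 and 0.0404% of all genes called; without upACSS2 PBS replicate 2 of day 21 the median was 0.44. In tau its median was 0.48, with 0 members at an unadjusted p under 0.05 and 0% of all genes called. DESeq2 and voom also called 0 in both. With library sizes left unscaled the score rose from day 9 to day 21 by 0.32 in place of 0.17 in vector PBS cultures and by 1.23 in place of 1.11 in upACSS2 PBS cultures. The sign of the score change in these PBS cultures thus did not rest on the scaling, while its size did in part.

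**Figure D4:**
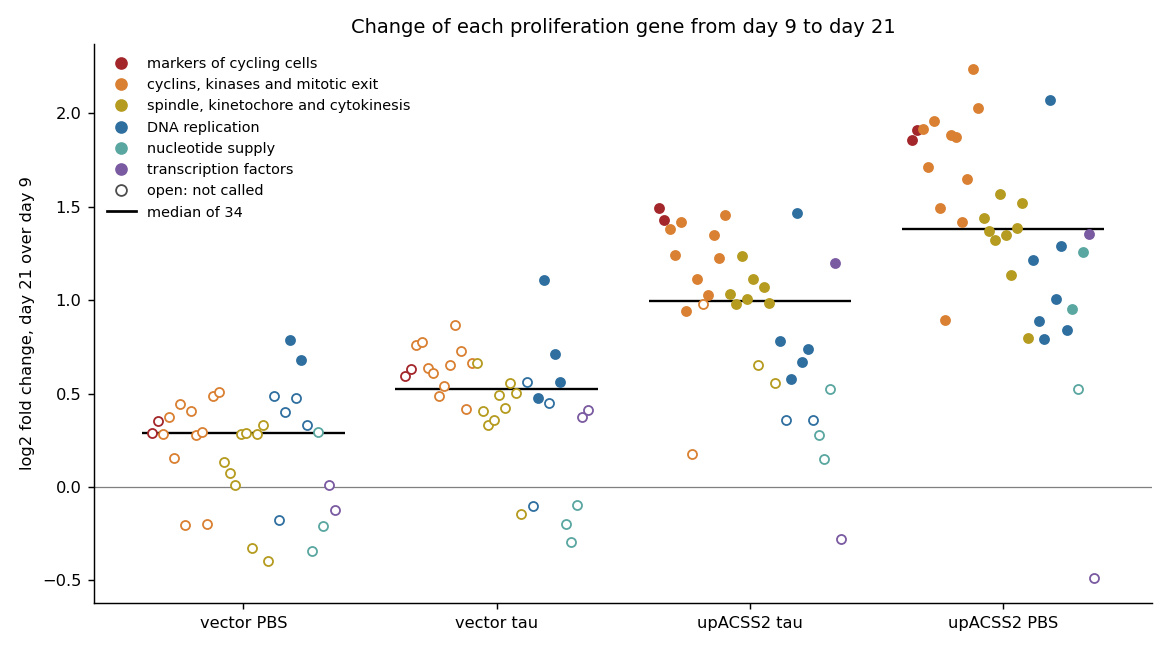
Log2 fold change from day 9 to day 21 of each of the 34 genes in 4 arms (from left, vector PBS, vector tau, upACSS2 tau, upACSS2 PBS), coloured by role. Open points did not pass the test and the line is the median. The medians are 0.29, 0.52, 1.00 and 1.38 in that order, and the filled points of the vector arms are replication genes.

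The wider cell cycle lists followed the same order of arms. Of the 49 other mitosis genes 0, 4, 46 and 30 passed as higher in vector PBS, vector tau, upACSS2 PBS and upACSS2 tau cultures, and of the 42 other replication genes 13, 15, 29 and 21 did. In upACSS2 PBS cultures they included the phosphatase Cdc25c (2.42), the kinesin Kif18b (2.41), the histone chaperone subunit Chaf1b (2.22) and the origin licensing factor Cdc6 (2.21), and E2f2 (2.67) rose with them. Mycn fell in both PBS arms (−2.20 with vector and −2.02 with upACSS2) and so did the inhibitor Cdkn1b (−0.56 and −0.53), while the inhibitor Btg2 rose (1.76 and 1.81). Markers of glial cells also rose with time, in every arm. All 9 oligodendrocyte precursor markers passed as higher in all 4 arms, and their sum went from 173 to 316 CPM over the day 9 libraries to 1124 to 2475 CPM over those of day 21. Of 12 astrocyte markers 11, 8, 8 and 11 passed as higher in the same order, and 6 of 7 neuroblast markers passed as lower in each. Their part in the members' rise was not tested.

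Within day 21 no member was called between any groups, and the spread between libraries was wider than on day 9 (biological coefficient of variation 0.189). In PBS cultures upACSS2 stood above vector by a median of 0.89 over the members, with 11 members at an unadjusted p under 0.05 and 0.0137% of all genes called. This rested on upACSS2 replicate 2: without it the median was 0.04. With all 24 libraries in 1 fit 4 members were called (Bub1b, Mki67, Prc1 and Rrm2, adjusted p 0.038 to 0.046). That library was not apart in its neuron or precursor markers, which summed to 8346 and 2061 CPM against 8294 and 2475 CPM in replicate 1 and 10704 and 1983 CPM in replicate 3. Its mature oligodendrocyte markers summed to 202 CPM against 1287 and 800 CPM, and its astrocyte markers to 4384 CPM against 7107 and 5964 CPM. Progenitor markers summed to between 1041 and 1422 CPM over the upACSS2 PBS libraries of day 21 and to between 960 and 1555 CPM over the vector PBS ones. In tau cultures upACSS2 stood above vector by a median of 0.42, with 0 members at an unadjusted p under 0.05, 0.0273% of all genes called, and 15 members in which all upACSS2 libraries lay above all vector libraries (9.49% of all genes). Pcna was at 33.3, 39.5 and 37.4 CPM in vector PBS cultures and at 30.2, 35.9 and 30.0 CPM with upACSS2 and tau, and Mcm2 at 18.6, 16.4 and 19.6 CPM and at 18, 21.8 and 19.3 CPM. Mcm2 with vector and tau was at 16.9, 19.0 and 16 CPM.

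Tau and PBS did not separate on day 21 in either virus arm. The medians were −0.12 with vector and −0.58 with upACSS2, the second of which was 0.25 without upACSS2 PBS replicate 2, and the interaction had a median of −0.42 (0.39 without it). In these 3 comparisons 0 members reached an unadjusted p under 0.05, 0% of all genes were called, and DESeq2 called 0 members.

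In the stimulated cultures of day 21 edgeR called no member either. In PBS, upACSS2 stood above vector by a median of 0.56, with 33 of 34 values above 0, 18 members at an unadjusted p under 0.05 and 0.208% of all genes called. DESeq2 called 3 members, the helicase subunits Mcm2, Mcm3 and Mcm4 (0.65, 0.71 and 0.41, adjusted p 0.011 to 0.041). In 12 members all upACSS2 libraries lay above all vector libraries, against 11.3% of all genes. Mcm3 had the lowest p (0.71, SE 0.17, adjusted p = 0.11), and its mean over 3 libraries was 10.4 ± 0.968 CPM (SD) in vector cultures and 17 ± 3.28 CPM (SD) in upACSS2 cultures. Mki67 was at 34.8, 70.0 and 39.6 CPM with upACSS2 and at 32.2, 24.5 and 34.3 CPM with vector, with all upACSS2 libraries above all vector ones. Mcm2 was at 22.2, 33.4 and 20.5 CPM against 16.1, 15.3 and 17 CPM, and Pcna at 54.4, 54.0 and 50.8 CPM against 46.1, 46.9 and 45.0 CPM, also without overlap. Top2a was at 42.5, 84.7 and 46.8 CPM against 38.0, 27.2 and 40.7 CPM. Replicate 2 was again highest in Mki67, Top2a and Mcm2, with a mature oligodendrocyte sum of 183 CPM against 1701 and 773 CPM, and without it the median was 0.18. Its precursor sum was 994 CPM against 2250 and 1698 CPM. Progenitor markers summed to between 815 and 1541 CPM over the stimulated upACSS2 PBS libraries and to between 991 and 1298 CPM over the vector PBS ones.

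With tau, stimulated upACSS2 cultures stood above vector by a median of 0.50 (0.937% of all genes called; 12 members at an unadjusted p under 0.05; DESeq2 also called 0). In 21 members all upACSS2 libraries lay above all vector libraries, against 12.4% of all genes. Mki67 was at 44.2, 38.8 and 31.1 CPM with upACSS2 against 22.9, 31.0 and 19.2 CPM, and Top2a at 46.0, 48.0 and 38.4 CPM against 26.0, 35.0 and 19.0 CPM. Pcna was at 50.5, 46.6 and 36.7 CPM against 43.2, 46.0 and 26.7 CPM, which overlap, as did Mcm2 at 19.0, 19.4 and 15.2 CPM against 16.5, 18.9 and 12.6 CPM. Astrocyte markers stood apart in the same direction, at 9020, 8568 and 7921 CPM against 5141, 5224 and 3344 CPM, and their part was not tested. Without vector tau replicate 2 edgeR called 2 members, Mcm3 as higher (0.74, adjusted p = 0.045) and E2f1 as lower (−0.79, adjusted p = 0.045). Of the other replication genes, the repair gene Brca1 passed as higher (0.77, adjusted p = 0.033).

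E2f1 ran against most other members in these cultures, and it was singled out after its values were seen. In vector cultures it was at 14.3, 10.8 and 18.8 CPM with tau and at 9.82, 7.71 and 11.5 CPM with PBS, an overlap of 1 library, while the median over all members was −0.26 and 32 of 34 values lay below 0. The difference for E2f1 was 0.59 (SE 0.20, adjusted p = 0.097 by edgeR), 3.02% of all genes were called, 1 member had an unadjusted p under 0.05, and E2f1 was the 1 member called by DESeq2 (adjusted p = 0.048). Without tau replicate 2 edgeR called it too (0.78, adjusted p = 0.029). In upACSS2 cultures it was at 8.94, 9.33 and 10.4 CPM with tau and at 6.17, 7.66 and 6.33 CPM with PBS (0.51, adjusted p = 0.28), where the members had a median of −0.38 (0.208% of all genes called, 7 members at an unadjusted p under 0.05, DESeq2 0). Against vector, upACSS2 gave lower E2f1 in PBS (−0.52, adjusted p = 0.24) and in tau (−0.61, adjusted p = 0.12), with no overlap in either (11.4% and 12.3% of all genes were lower without overlap). In tau, 4 members had values below 0 and 2 members, E2f1 among them, were lower without overlap. Mycn, a MYC family transcription factor, passed as higher with tau in vector cultures (0.87, adjusted p = 0.044). The interaction of virus and tau had a median of −0.10 with 0 members called by edgeR or DESeq2, 0 at an unadjusted p under 0.05 and 0% of all genes called. Unstimulated cultures of day 21 had the same order of E2f1 means, with overlapping groups and no call. Per kilobase of exon, E2f1 there was at 4.64 CPM with tau and 3.12 CPM with PBS in vector cultures. In upACSS2 cultures it was at 2.95 CPM with tau and 2.16 CPM with PBS.

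In the culture without virus, in a table scaled on its own, 6 of 7 libraries had high levels of the cycling genes and 1 had very little of them. Mki67 was at 140, 100 and 2.02 CPM in the PBS libraries and at 87.9, 88.6, 143 and 136 CPM with tau. Top2a was at 153, 99.8 and 2.89 CPM with PBS and at 92.6, 99.8, 154 and 145 CPM with tau, and Cdk1 at 24.4, 18.2 and 0.72 CPM with PBS and at 15.5, 18.1, 28.9 and 26.1 CPM with tau. PBS replicate 3 lay far below the other 6 libraries, which overlapped. The drop was smaller in the replication genes: Mcm2 was at 58.8, 43.9 and 11.8 CPM with PBS and at 35.5, 42.1, 57.7 and 43.4 CPM with tau, and Pcna at 70.9, 56.0 and 29.1 CPM and at 53.4, 57.7, 65.7 and 56.5 CPM. E2f1, at 13.3, 13.5 and 14.5 CPM with PBS and 18, 14.5, 15.5 and 14.8 CPM with tau, was not low in replicate 3.

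**Figure D5:**
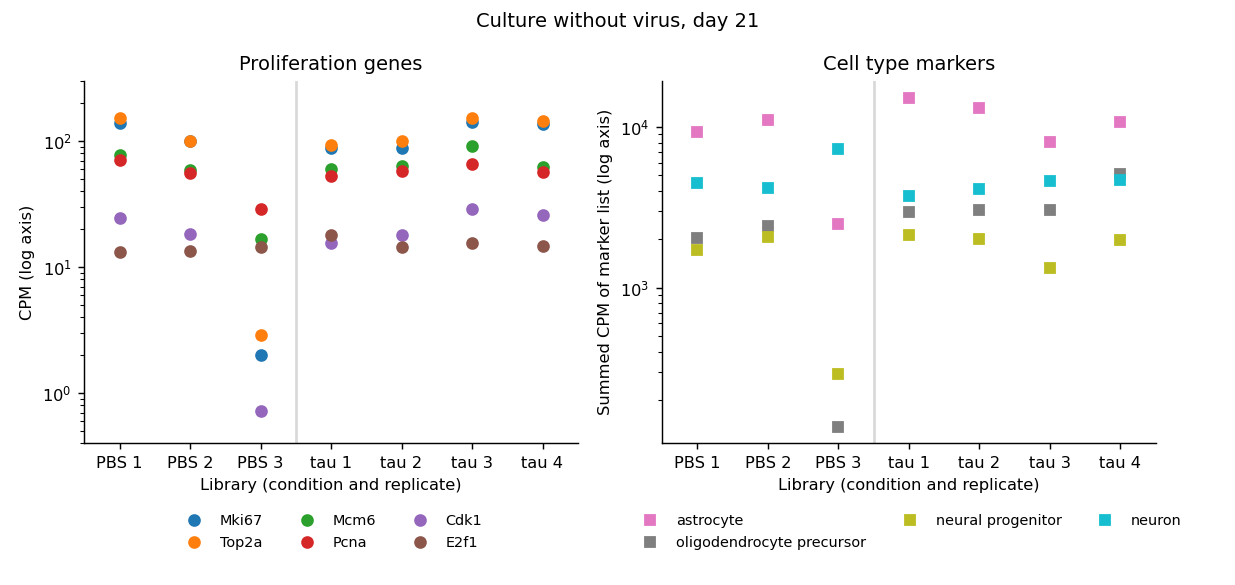
Culture without virus, each library as a point on log axes: CPM of Mki67, Top2a, Mcm6, Pcna, Cdk1 and E2f1 (left) and the summed CPM of the cell type marker lists (right), for PBS and tau. PBS replicate 3 lies below the other libraries in every gene shown except E2f1 and in astrocyte (2506 CPM) and precursor (136 CPM) markers, and above them in neuron markers (7346 CPM).

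The same library stood apart in its precursor, progenitor, astrocyte and neuron markers. Oligodendrocyte precursor markers summed to 2044, 2436 and 136 CPM in the PBS libraries and to between 2946 and 5133 CPM with tau. Progenitor markers summed to 1703, 2066 and 289 CPM with PBS and to between 1317 and 2137 CPM with tau, and astrocyte markers to 9255, 11033 and 2506 CPM and to between 8073 and 15266 CPM. Neuron markers summed to 4500, 4163 and 7346 CPM with PBS and to between 3711 and 4673 CPM with tau. Microglia markers, at 328, 308 and 90.0 CPM with PBS and between 59.9 and 639 CPM with tau, did not set it apart. Their part in the members' levels was not tested, and the total of that library, 28697490 counts, was not low. With all 7 libraries the members had a median log2 difference of 0.58 between tau and PBS, with all 34 values above 0. In 1 member, Birc5, all tau libraries lay above all PBS libraries, against 6.9% of all genes. edgeR called 0 of the 34, and 0 of all 16341 genes tested (0%); 0 members and 2272 of all genes had an unadjusted p under 0.05, and DESeq2 called 0 members. Without PBS replicate 3 the median was 0.03, so the direction over all libraries rested on it.

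In hippocampus the mitotic members were close to the floor and the replication members were not. In the 24 aged mice Mki67 ranged from 0.071 to 0.73 CPM with a median of 0.41, and Top2a from 0.14 to 0.71 CPM with a median of 0.39. Pcna ranged from 30.3 to 44.5 CPM with a median of 38.3, Mcm2 from 3.27 to 6.40 CPM with a median of 4.93, and E2f1 from 5.25 to 13.2 CPM with a median of 8.91. Mcm4 (11.3 CPM), Mcm6 (12.6 CPM) and Mcm7 (9.65 CPM) had the next highest medians. Of the mitotic members, Cenpe, Bub1b and Tpx2 held medians of 2.33, 1.87 and 1.93 CPM, while Aurkb and Ube2c were at a count of 0 in 10 of 24 libraries each and Ccnb1 in 7. The 16 members with a median of at least 1 CPM thus included all 7 replication genes and 6 of the 22 cycling, mitotic and spindle genes (Aurka, Bub1b, Ccna2, Cenpe, Kif11 and Tpx2).

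In mice no member that passed the filter on low counts was called between upACSS2 and vector. Mki67 and Top2a did not pass that filter in aged and 10-month mice, so their values there are given without a test. In the aged mice, 12 per arm, Mki67 averaged 0.461 ± 0.104 CPM (SD) after upACSS2 and 0.350 ± 0.180 CPM after the empty virus, Top2a at 0.474 ± 0.186 and 0.382 ± 0.159 CPM, Pcna at 37.3 ± 2.80 and 38.7 ± 3.96 CPM and Mcm2 at 4.83 ± 0.748 and 5.00 ± 0.852 CPM, with overlap in each. Of the 18 members that passed the filter on low counts 0 were called, as were 0 of all 15157 genes (0%), with 1 member and 846 genes at an unadjusted p under 0.05 and 0 members by DESeq2. That member was Cenpf (−0.40, adjusted p = 0.87), named after its values were seen. In 10-month mice Mki67 averaged 0.591 ± 0.202 CPM (SD, n = 6) after upACSS2 and 0.439 ± 0.309 CPM (n = 5) after the empty virus, Top2a at 0.890 ± 0.313 and 0.587 ± 0.308 CPM, Pcna at 39.9 ± 3.30 and 42.7 ± 5.09 CPM and Mcm2 at 5.73 ± 1.13 and 4.83 ± 0.921 CPM. These groups overlapped too, and 0 of the 14 members tested and 0 of 13629 genes were called (0%). Here 1 member and 1204 genes had an unadjusted p under 0.05, and DESeq2 called 0 members. The 1 member was Mcm5, at 4.40 ± 0.642 against 5.85 ± 0.430 CPM (−0.41, adjusted p = 0.52, groups without overlap, against 0.411% of all genes), named after its values were seen.

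Over the 20 PS19 libraries Mki67 had a median of 1.80 CPM and Top2a of 2.31 CPM, against 0.47 and 0.71 CPM in 10-month mice and 0.41 and 0.39 CPM in aged mice. Bub1b was in the opposite order, at 0.80, 1.42 and 1.87 CPM, and no test was run across these separately scaled tables. Mouse line, age, time with virus and behavioural test also differed between these mice and cannot be told apart. After 1 month Mki67 was at 1.27, 2.71, 1.91, 1.31 and 4.08 CPM with vector and at 2.26, 1.92, 0.957, 1.89 and 1.71 CPM with upACSS2. Top2a was at 1.50, 2.64, 3.49, 0.799 and 5.73 CPM with vector and at 2.41, 1.40, 2.87, 1.76 and 2.64 CPM with upACSS2. Vector replicate 5 was the highest in both genes and had a microglia marker sum of 1461 CPM against 457 to 918 CPM in the rest of its group. After 6 months the vector mice had microglia sums of 692 to 1675 CPM. Their mean log2 CPM over Mki67 and Top2a was at most 1.61, against 2.31 in vector replicate 5 of 1 month. The part of microglia in these values was not tested. Pcna was at 33.3 ± 3.34 CPM with vector and 27.0 ± 6.73 CPM with upACSS2 (SD, n = 5), and Mcm2 at 5.37 ± 0.604 and 5.05 ± 1.06 CPM. The groups overlapped in each.

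After 6 months Mki67 was at 2.92, 1.41, 1.65, 2.53 and 2.10 CPM with vector and at 1.69, 0.945, 1.34, 2.29 and 1.59 CPM with upACSS2, and Top2a at 2.60, 1.85, 0.970, 3.40 and 1.70 CPM and at 2.18, 2.21, 3.01, 3.03 and 1.75 CPM. Pcna was at 30.1 ± 3.72 CPM with vector and 33.7 ± 5.82 CPM with upACSS2, and Mcm2 at 6.25 ± 0.331 and 6.29 ± 0.645 CPM. Groups overlapped in all 4 genes. Of the 25 members tested 0 were called between upACSS2 and vector at either time (0% of 15850 genes each; 1 and 0 members at an unadjusted p under 0.05; DESeq2 0 in both), and the medians were −0.15 and 0.01.

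Between 6 months and 1 month in PS19 vector mice 7.46% of all genes were called, and 0 of the 25 members (1 at an unadjusted p under 0.05; DESeq2 0), with a median of −0.04. That member was E2f1, at 4.96, 4.48, 7.08, 3.95 and 5.38 CPM after 6 months against 6.10, 6.33, 7.62, 11.4 and 5.56 CPM after 1 month (−0.52, adjusted p = 0.087). It was called without replicate 5 of the 1-month group (−0.62, adjusted p = 0.046) or replicate 3 of the 6-month group (−0.67, adjusted p = 0.046). Genes of the other lists did pass in this comparison: the inhibitors Cdkn1a, which encodes p21, and Trp53 rose by 1.31 (adjusted p = 0.028) and 0.52 (0.020), the condensin subunit Ncapd2 rose by 0.93 (0.0075) and Dut, which removes dUTP, fell by 0.35 (0.022). Cell type markers passed as well: of 9 oligodendrocyte precursor markers Cspg4 (0.83) and Olig2 (0.62) rose, of 8 mature oligodendrocyte markers Mag (0.74) rose, of 11 microglia markers Csf1r (0.60) rose, and of 9 progenitor markers Hes5 (−0.82) and Fabp7 (−0.75) fell. Their part in the members' values was not tested. In upACSS2 mice the time comparison called 0 members (0.0442% of all genes; 5 members at an unadjusted p under 0.05; DESeq2 0; median 0.06), and the interaction of virus and time called 0 (0% of all genes; 1 member unadjusted; DESeq2 0; median 0.06). Age of the mice and time since injection cannot be told apart in these comparisons.

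Reads could be shared between some members and neighbouring genes. In the GENCODE vM21 annotation of GRCm38, exons of Ccna2, Plk1, Cdc20, Ube2c, Kif20a, Nusap1, Prc1, Mcm7 and Tk1 overlap those of a gene on the opposite strand, such as Exosc9 for Ccna2 and Cops6 for Mcm7, and the strand setting of the counting is not given in the sources used here. The members with no such overlap include Mki67 (chr7:135689784-135716361), Cdk1 (chr10:69335146-69352938), Pcna (chr2:132249162-132253314) and Mcm2 (chr6:88883474-88898780). Top2a (chr11:98992943-99024189) overlaps the small gene Gm23451.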

How the data were processed

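RNA was measured by bulk RNA-seq in 98 libraries, and the values used are the whole-number gene counts deposited by the authors in 6 tables. The submitters' processing notes name STAR, featureCounts, HTSeq, DESeq2 and the build mm10, without role or version. Each table was read by sample title. A row without a gene name, with 6.13% to 8.74% of the counts in the culture without virus, was left out. Counts of 242 pairs of libraries within groups were compared, and none were identical. Genes were filtered with filterByExpr, scaled by TMM and tested with edgeR 4.0.16 (quasi-likelihood, R 4.3.3) per table, and per culture day for the unstimulated cultures, with Benjamini-Hochberg adjustment over all genes tested and a threshold of 0.05. The scores use a prior count of 2 in log2 CPM. The scripts were tested on simulated data. The members and lists were chosen with earlier results of these data known, and the 2 interactions of virus and day were added after values were seen. In each comparison the members with the lowest p, at most 6, are given by library, with Mki67, Top2a, Pcna and Mcm2 in every group, and of other lists at most the 3 highest and 3 lowest changes that passed. Replicate numbers paired the samples (each correlation above 0.1) only in the culture without virus and in 2 stimulated comparisons, upACSS2 against vector in tau and tau against PBS in vector; these come from the correlations, since the labels give no shared source. Alternatives were RLE scaling, no filter, DESeq2 1.42.0, limma 3.58.1 (voom with quality weights), a replicate block and other sets of libraries. Each library was also left out, except in the aged mice. Those were instead fitted with a term for sets of replicates and on a subset of replicates.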

Additional observations from a re-analysis of the deposited data

How the results depend on the processing

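Counts of members called moved with the tool, the libraries in the fit and the filter. For upACSS2 against vector in PBS on day 9 (17 called) DESeq2 gave 9 and all 24 unstimulated libraries in 1 fit gave 0. For tau against PBS in vector cultures on day 9 (10 called) the values were 19 without a filter, 6 with only the groups compared and 0 with all 24. For the interaction on day 9 (0 called) DESeq2 gave 1, no filter 3 and voom 1. For upACSS2 against vector in PBS on day 21 (0 called) all 24 gave 4. From day 9 to day 21, only the groups compared gave 6 for vector PBS (2 called) and 16 for vector tau (4 called), and voom gave 1 for vector PBS. In stimulated cultures DESeq2 gave 3 for upACSS2 in PBS and 1 for tau in vector, both 0 with edgeR. In each of these the cause was not tested.

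Leaving out 1 library gave 5 to 21 members for upACSS2 in PBS and 2 to 19 for tau in vector on day 9, and 0 to 3 for their interaction. From day 9 to day 21 it gave 14 to 24 for upACSS2 tau, 20 to 33 for upACSS2 PBS, 1 to 4 for vector tau and 1 to 2 for vector PBS. In stimulated cultures it gave 0 to 2 for upACSS2 in tau and 0 to 1 for tau in vector, and 0 to 1 for PS19 vector mice over time. All other comparisons with groups of 5 or fewer gave 0 in each such fit. None of the genes with the lowest p in a comparison (at most 6 each) changed sign in any setting; of their tests 153 kept their side of the threshold and 27 lost it without 1 library, and 178 kept it and 14 lost it in other settings. All 69 score differences recomputed with another prior count, filter or scaling moved by less than 1 SD.

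With the replicate number as a block, the 3 comparisons in which the numbers paired the samples called 0 members, as without it. Elsewhere samples share only a number: the block gave 19 and 13 in the 2 comparisons of day 9 (17 and 10 without it), 1 in place of 2 for vector PBS over time, 1 in place of 0 for upACSS2 in PBS in stimulated cultures, and changed no other count by more than 1.5 times. In mice, several mitotic members are at a count of 0 in some libraries, and the part of depth in this was not tested.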
